A study of Rattus norvegicus with 138 samples.

Results

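The genes described here were those of the myostatin, activin and follistatin axis in volumetric muscle loss (VML), the surgical removal of a block of muscle that does not regrow. They were chosen by symbol from a table of TPM, a measure of transcript abundance scaled to transcript length and to the library, and all 9 of the 9 symbols sought were found among 16181 symbols: the ligand genes Mstn, Inhba and Inhbb, the receptor genes Acvr2a, Acvr2b and Acvr1b, and the follistatin family genes Fst, Fstl3 and Fstl1. RNA was sequenced from tibialis anterior (TA) muscles of male inbred Lewis rats of about 4 months of age. A full-thickness piece of the TA of 1 leg was taken with a 6 mm punch, and the injured muscle was either left non-repaired or given a minced muscle graft (MMG) made from the excised tissue. Operated rats ran or did not run (the labels do not give the kind of exercise), and both the injured TA and the contralateral TA were taken at 3, 7, 14 or 28 days post injury (DPI). Control muscles were 4 TA muscles labelled Sham and day 0, the left and right of 2 rats without a graft or running, so the 4 control values come from 2 animals.

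Non-running injured muscles numbered 3, 8, 4 and 4 at 3, 7, 14 and 28 DPI without repair and 7, 8, 4 and 4 with the graft, and non-running contralateral muscles numbered 2, 4, 2 and 2 without repair and 2, 6, 2 and 2 with the graft on the other side. In running rats there were 8, 4, 4 and 2 non-repaired and 6, 4, 4 and 2 grafted injured muscles, and 2 contralateral muscles in each arm at 3, 7 and 14 DPI. All groups were labelled as the same strain. The graft adds muscle tissue of the same animal to the sample, and a whole TA muscle holds both the defect and the fibers around it, so fewer cells of a type and less RNA per cell cannot be told apart. The control rats carry the number series TS4 and the operated rats TS5, so the series and the operation cannot be told apart in any comparison with control.

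Myostatin, the product of Mstn, is made mainly by muscle fibers and restrains muscle growth. It binds the type II receptors encoded by Acvr2b and Acvr2a, which then recruit a type I receptor such as the one encoded by Acvr1b (ALK4), and the signal passes through SMAD2 and SMAD3 to the nucleus. Activin A, a dimer of Inhba products, and activin B, a dimer of Inhbb products, use the same receptors, and follistatin (Fst) and follistatin-like 3 (Fstl3) bind these ligands and keep them from the receptors. The protein of Fstl1 has a follistatin-like domain and is secreted largely by mesenchymal cells, but it is not an established trap for activins.

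Promoter windows of 250 bases before the gene start were matched by symbol for 7 of the 9 genes in RefSeq (assembly GRCr8). No window was matched by symbol for Mstn and Fst, which does not show that the assembly lacks these genes. Windows are shown for the 4 matched genes that were called higher in injured than in control muscle at some day. A call, on the TPM scale, needed an adjusted limma p below 0.05 and a log2 fold change beyond 1. The windows are shown to set the sequences before these 4 genes side by side. Each is on the minus strand and is written 5′ to 3′: Inhba chr17:53804509-53804758, Inhbb chr13:33089374-33089623, Fstl1 chr11:76454054-76454303 and Fstl3 chr7:10579845-10580094. Capitals mark a match on either strand to 1 of 4 motifs, and in Fstl3 an E-box and the SMAD box overlap. The AP-1 site was searched as TGANTCA. The letters searched for the SMAD box were CAGACA. An E-box, the kind of site bound by myogenic bHLH factors, was any CANNTG. The TATA box was searched as TATAAA.
Inhba: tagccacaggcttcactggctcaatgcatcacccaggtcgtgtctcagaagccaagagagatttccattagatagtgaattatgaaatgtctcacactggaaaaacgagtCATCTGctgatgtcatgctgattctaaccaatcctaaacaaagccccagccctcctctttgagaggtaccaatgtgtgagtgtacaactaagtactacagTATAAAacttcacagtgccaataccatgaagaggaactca
Inhbb: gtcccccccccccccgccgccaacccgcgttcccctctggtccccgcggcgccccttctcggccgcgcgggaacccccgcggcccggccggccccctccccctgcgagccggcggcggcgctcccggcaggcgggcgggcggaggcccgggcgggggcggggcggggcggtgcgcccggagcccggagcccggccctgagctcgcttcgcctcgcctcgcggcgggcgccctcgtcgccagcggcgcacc
Fstl1: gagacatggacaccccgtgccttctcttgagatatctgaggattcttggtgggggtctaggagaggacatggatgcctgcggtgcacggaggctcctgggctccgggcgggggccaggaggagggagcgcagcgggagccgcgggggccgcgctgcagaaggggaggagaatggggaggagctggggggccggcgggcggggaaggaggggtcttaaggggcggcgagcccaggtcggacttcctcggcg
Fstl3: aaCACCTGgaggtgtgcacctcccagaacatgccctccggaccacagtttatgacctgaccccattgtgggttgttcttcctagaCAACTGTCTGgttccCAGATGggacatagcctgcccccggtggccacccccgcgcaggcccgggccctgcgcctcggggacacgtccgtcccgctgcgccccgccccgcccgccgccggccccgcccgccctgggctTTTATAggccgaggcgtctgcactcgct
The Inhba window held 1 E-box and 1 TATA box, and the Fstl3 window held 3 E-boxes, 1 SMAD box and 1 TATA box. The Inhbb and Fstl1 windows held none of the 4 motifs, nor did those of Acvr2a and Acvr2b, and that of Acvr1b held 1 E-box. Over 33469 windows of this length, 65.5% held an E-box, 17.2% a SMAD box, 12.9% a TATA box and 6.34% an AP-1 site. The GC content was 43.6% in Inhba, 86.8% in Inhbb, 70.0% in Fstl1 and 68.8% in Fstl3, beside a median of 51.2% over all windows and a 95th percentile of 72.8%. A match describes the letters in the window and is not evidence of binding.

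After 13 libraries with fewer than 7000 symbols above 1 TPM were dropped, 116 libraries of 114 muscles of 78 rats remained, with 7866 to 10948 symbols above 1 TPM. Rats were counted from the labels, and the methods of the study give a smaller total, so the number of animals is in doubt. The depth of the libraries is unknown from TPM. Differences are given as log2 fold changes of TPM + 1 with their standard errors from limma, which understate the change of genes near 0 TPM, and calls required both an adjusted p below 0.05 and a log2 fold change beyond 1, over 11328 genes tested. TPM are shares of each library, and the median log2 fold change over all genes in non-repaired injured muscle against control was 0.96, 0.91, 0.53 and 0.52 at 3, 7, 14 and 28 DPI. After rescaling by size factors these medians were 0.09, 0.08, 0.02 and 0.04, and the share of higher genes among called genes went from between 91.9% and 99.0% to between 59.2% and 78.4%. Values are on the TPM scale unless size factors are named. Control replicate 4 had the fewest symbols above 1 TPM of the muscles kept and was the lowest control muscle for 8 of the 9 genes, all but Inhba.

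Transcripts that mark other cells moved with injury. The summed level of 10 muscle fiber genes was 237796 to 316187 TPM in control and 48973 to 66076 TPM in non-repaired muscle at 3 DPI, 76236 to 156520 TPM at 7 DPI and 202353 to 238232 TPM at 28 DPI. Of the 10 fiber genes 10, 6, 2 and 1 were called lower in the order of the days. The 10 leukocyte genes summed to 14.0 to 23.2 TPM in control, with Ptprc at a mean of 0.40 and Itgam at 0.24 TPM, and to 1892 to 2729 TPM at 3 DPI. The 10 fibroblast genes summed to 86.9 to 256 TPM in control, 5212 to 9282 TPM at 3 DPI and 7517 to 22166 TPM at 7 DPI, and all genes of both lists were called higher at each of the 4 days. Of 7 genes of myogenic progenitors and new fibers, 6, 5, 5 and 6 were called higher, of 8 endothelial genes 5, 6, 3 and 2, and of 4 adipocyte genes tested 1, 1, 1 and 4, in the order of the days. The part of these cells in the results that follow was not tested.

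Of the 9 genes, 5, 6, 3 and 2 were called in non-repaired muscle against control at 3, 7, 14 and 28 DPI, where 52.6%, 48.1%, 25.5% and 21.3% of all genes tested were called. With the graft the counts were 6, 6, 3 and 2, beside 58.5%, 54.0%, 32.5% and 25.5% of all genes. These shares of the 9 genes lay near or modestly above those of all genes, so the number called is no result about the axis. At 3 and 7 DPI, 4 and 5 of the 9 genes were called higher without repair and 1, Mstn, lower, where 48.3% and 45.6% of all genes were called higher and 4.24% and 2.42% lower. With size factors these counts were 2 and 4 higher and 3 and 3 lower, the lower genes being Mstn, Acvr2b and Acvr1b at both days, where 24.2% and 21.6% of all genes were called higher and 16.6% and 14.0% lower. The split into higher and lower calls thus depends on the scaling.

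**Figure D1:**
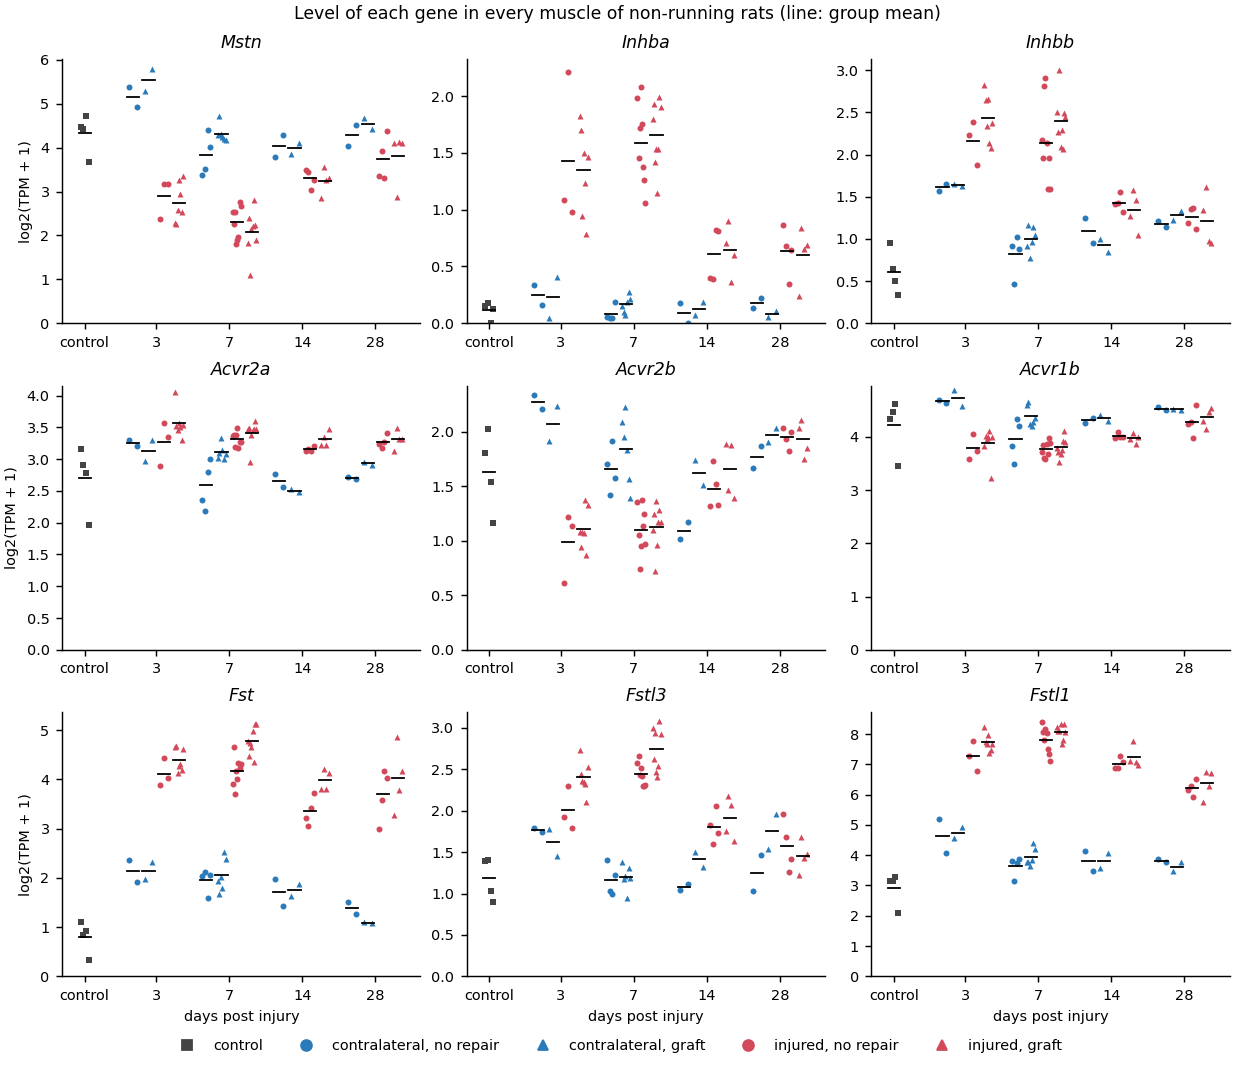
The level of each of the 9 genes, as log2(TPM + 1), in every muscle of non-running rats (1 point per muscle, line at the group mean) for control muscle and for contralateral and injured muscle with and without a graft at 3, 7, 14 and 28 DPI. Mstn was lowest in injured muscle at 7 DPI and highest in contralateral muscle at 3 DPI, and Fst and Fstl1 lay above control in every injured muscle.

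Mstn was lower in injured muscle and returned toward control by 28 DPI. The study, which tested gene counts, instead names myostatin among negative regulators of myogenic differentiation that were strongly upregulated. The reason for the opposite direction was not tested. The 4 control muscles held 21.2, 20.6, 25.5 and 11.8 TPM, and the 3 non-repaired muscles at 3 DPI held 4.18, 8.07 and 7.96 TPM. At 7 DPI the 8 non-repaired muscles ranged from 2.48 to 5.73 TPM with a median of 4.29 TPM. No muscle of these 2 groups reached the lowest control muscle. Mstn fell by 1.42 ± 0.34 (SE) on the log2 scale at 3 DPI (limma, adjusted p = 8.68e-05) and by 2.03 ± 0.27 at 7 DPI (adjusted p = 9.84e-11).

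At 14 DPI the non-repaired muscles held 10.2, 9.81, 7.20 and 8.67 TPM of Mstn, all still under the lowest control muscle, and at 28 DPI they held 9.18, 14.1, 8.86 and 19.8 TPM, which overlapped control. The difference was −1.02 ± 0.31 at 14 DPI (limma, adjusted p = 0.00264) and −0.59 ± 0.31 at 28 DPI (adjusted p = 0.0812, 95% interval −1.21 to 0.03). The call at 14 DPI was lost without control replicate 1 (−0.97), 2 (−0.99) or 3 (−0.89), without injured replicate 3 (−0.93), and with all libraries kept (−1.02, adjusted p = 0.0676), and adjusted p ranged from 1.18e-06 to 0.0676 over the alternatives. With size factors Mstn was lower by more and called at all 4 days, with log2 fold changes of −2.48, −3.01, −1.69 and −1.25.

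With the graft, Mstn ranged from 3.78 to 9.25 TPM at 3 DPI (median 5.0, n = 7) and from 1.13 to 5.99 TPM at 7 DPI (median 3.54, n = 8). Its log2 fold changes against control were −1.59 ± 0.28, −2.25 ± 0.27 and −1.08 ± 0.31 at 3, 7 and 14 DPI, all called, and −0.53 at 28 DPI, not called. With size factors these were −2.77, −3.31, −1.87 and −1.25, all called. The call at 14 DPI was lost without control replicate 3 or grafted replicate 1, each with −0.94. The non-repaired and grafted comparisons share the 4 control muscles.

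Since myostatin is a fiber product, Mstn was also set against the mean log2(TPM + 1) of the 10 fiber genes in the same muscle. This difference was −9.84 ± 0.56 (SD, n = 4) in control, −8.87 ± 0.13 (n = 3) in non-repaired muscle at 3 DPI and −8.61 ± 0.44 (n = 7) in grafted muscle at 3 DPI. Contralateral muscles of non-running rats at 3 DPI also lay above every control muscle, at −8.36 and −9.01 without repair and −8.57 and −8.08 with the graft. The highest control muscle was at −9.37. A higher value than control at 3 DPI was thus not particular to injured muscle, and the contralateral values were not tested. The difference of injured muscle from control at 3 DPI was 0.97 without repair, not past the threshold, and 1.23 with the graft. The exact permutation test over muscles, two-sided, gave p = 0.0571 without repair and p = 0.00606 with the graft, in both cases the smallest p these numbers of muscles allow, and adjusted over the 8 comparisons these were 0.129 and 0.0485. With the graft the difference at 3 DPI was 1.08 with a pseudocount of 0.1 (adjusted p = 0.0754) and 0.84 with Acta1 and Ckm alone (adjusted p = 0.381), so the call was lost under both choices. It was also lost without control replicate 1, 2 or 3 (1.29, 1.29 and 1.39, adjusted p = 0.133 each), where 0.0167 is the smallest exact p that 7 against 3 muscles allow, and held without control replicate 4 (0.96, adjusted p = 0.0444). The 4 control muscles came from 2 rats, so in an alternative chosen after seeing the data they were averaged per rat. The grafted difference at 3 DPI was then 1.23 with an exact permutation p of 0.0556 (adjusted 0.213), the smallest p that 7 muscles against 2 rats allow, and with 2 control rats none of the 8 values could pass the adjusted threshold.

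At 7 DPI the sign was the other way, with Mstn lower relative to the fiber genes than in control by −0.60 without repair (exact permutation p = 0.0646, adjusted 0.129) and −0.57 with the graft (exact permutation p = 0.0364, adjusted 0.129), neither past the threshold after adjustment. Without control replicate 4 these were −0.87 and −0.84, each with an adjusted p of 0.0444. At 14 DPI the differences were −0.66 and −0.61 (both exact permutation p = 0.114), and at 28 DPI −0.24 and −0.19 (exact permutation p = 0.514 and 0.486). Of the 8 values, 1 was past the threshold.

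**Figure D2:**
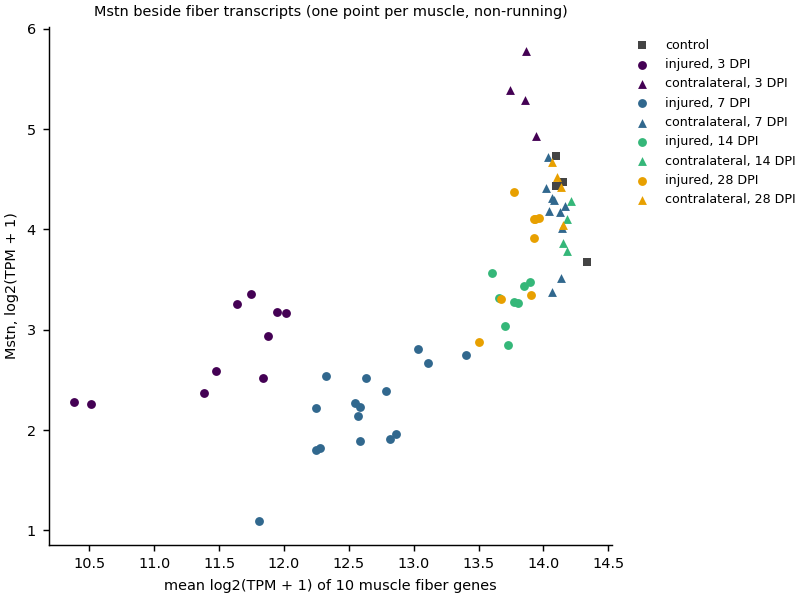
Mstn, as log2(TPM + 1), against the mean log2(TPM + 1) of 10 muscle fiber genes, with 1 point per muscle of non-running rats, colored by day. Injured muscles at 3 DPI lay on average farthest to the left, with mean Mstn levels of 6.74 TPM without repair and 5.98 TPM with the graft against 4.07 and 3.42 TPM at 7 DPI, and contralateral muscles at 3 DPI lay above control for Mstn and slightly to its left for the fiber genes.

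The activin subunit genes were higher early after injury. Inhba, near 0 in control at 0.11, 0.13, 0 and 0.09 TPM, was at 1.12, 3.64 and 0.97 TPM in non-repaired muscle at 3 DPI and at 1.08 to 3.22 TPM (median 2.02, n = 8) at 7 DPI. Every injured muscle at 3 and 7 DPI exceeded every control muscle. Inhba passed the filter on low values only through the 8 injured groups at 3 and 7 DPI, so it had to differ, and no fold is given against the control muscle listed at 0. Its log2 fold change, bounded by the pseudocount, was 1.31 ± 0.32 at 3 DPI (limma, adjusted p = 0.000139) and 1.47 ± 0.26 at 7 DPI (adjusted p = 2.35e-07).

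The Inhba call at 3 DPI was lost without injured replicate 2, the muscle at 3.64 TPM (0.92, adjusted p = 0.0147), and with size factors (1.00, just under 1), and adjusted p ranged from 1.29e-08 to 0.0147 over the alternatives. At 14 DPI the non-repaired muscles held 0.32, 0.31, 0.77 and 0.76 TPM and at 28 DPI 0.82, 0.60, 0.27 and 0.56 TPM, all above the highest control muscle, with log2 fold changes of 0.49 (95% interval −0.10 to 1.09) and 0.52 (−0.07 to 1.11) that were not called. With the graft Inhba was higher by 1.24 ± 0.26 at 3 DPI and 1.55 ± 0.26 at 7 DPI, both called, and with size factors by 0.85, not called, and 1.18. In running non-repaired rats at 3 DPI, 7 muscles held 1.48 to 2.60 TPM and replicate 6 held 25.4 TPM, the highest Inhba value of the series, beside 13.3 TPM of Mstn, also the highest of its group.

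Inhbb was at 0.94, 0.56, 0.42 and 0.26 TPM in control and at 3.68, 4.21 and 2.68 TPM in non-repaired muscle at 3 DPI. The 8 non-repaired muscles at 7 DPI held 2.01 to 6.51 TPM (median 3.14). No muscle of these groups overlapped control. Inhbb rose by 1.55 ± 0.23 at 3 DPI (limma, adjusted p = 2.43e-09) and by 1.53 ± 0.18 at 7 DPI (adjusted p = 1.87e-12), and with size factors by 0.98, under the fold threshold, and by 1.00. Levels at 14 DPI (1.67, 1.69, 1.93 and 1.5 TPM) and 28 DPI (1.28, 1.56, 1.58 and 1.17 TPM) were above every control muscle, with log2 fold changes of 0.82 and 0.65 that missed the fold threshold. With the graft Inhbb rose by 1.83 ± 0.19 and 1.78 ± 0.18 at 3 and 7 DPI, and with size factors by 1.11 and 1.15. On the per-length TPM scale the levels of Mstn and Inhbb, far apart in control, overlapped in non-repaired muscle at 7 DPI, with means of 4.07 ± 1.26 (SD, n = 8) TPM for Mstn and 3.65 ± 1.71 TPM for Inhbb.

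None of the 3 receptor genes was called against control at any day, with or without the graft, on the TPM scale. Acvr2b, the receptor gene with the lowest level of the 3, was at 2.49, 3.08, 1.91 and 1.24 TPM in control and 0.53, 1.33 and 1.20 TPM in non-repaired muscle at 3 DPI, which overlapped control replicate 4. At 28 DPI it was at 3.11, 2.83, 2.54 and 3.00 TPM. The log2 fold changes of Acvr2b were −0.64 ± 0.17, −0.53 ± 0.14, −0.16 ± 0.16 and 0.32 ± 0.16 at 3, 7, 14 and 28 DPI, and with size factors −1.36, −1.23, −0.66 and −0.16, of which the first 2 were called and the last changed sign.

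Acvr1b, the type I receptor gene, was at 19.2, 21.2, 23.7 and 9.93 TPM in control and 11.1, 15.6 and 12.2 TPM in non-repaired muscle at 3 DPI, between control replicate 4 and the other control muscles. Its log2 fold changes were −0.43 ± 0.17, −0.45 ± 0.13, −0.20 ± 0.15 and 0.06 ± 0.15 over the 4 days, and with size factors −1.51, −1.48, −0.86 and −0.59, called at 3 and 7 DPI and of the opposite sign at 28 DPI. Acvr2a was at 7.90, 6.49, 5.91 and 2.90 TPM in control and 6.43, 10.8 and 9.19 TPM in non-repaired muscle at 3 DPI. Its log2 fold changes of 0.57 ± 0.15, 0.61 ± 0.12, 0.45 ± 0.14 and 0.57 ± 0.14 had the opposite sign with size factors (−0.43, −0.34, −0.14 and −0.01), so it has no direction that holds under both scalings. With the graft and size factors Acvr2b was called lower at 3 and 7 DPI (−1.34 and −1.27) and Acvr1b at 3, 7 and 14 DPI (−1.58, −1.56 and −1.03).

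The difference between the 2 type II receptor genes within a muscle does not depend on the scaling in the same way. It is not free of it, since 1 TPM is added to each gene and Acvr2b was near that level in injured muscle. The difference was not computed with size factors. Acvr2a exceeded Acvr2b by 1.07 ± 0.27 (SD, n = 4) on the log2(TPM + 1) scale in control, by 2.28 and 2.21 in non-repaired muscle at 3 and 7 DPI, and by 1.68 and 1.32 at 14 and 28 DPI. With the graft the differences were 2.45, 2.29, 1.66 and 1.37. In non-running contralateral groups the means were 0.88 to 1.57. The 2 genes thus moved apart at 3 and 7 DPI, where fiber genes were lowest and leukocyte and fibroblast genes were high, and the part of those cells was not tested.

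**Figure D3:**
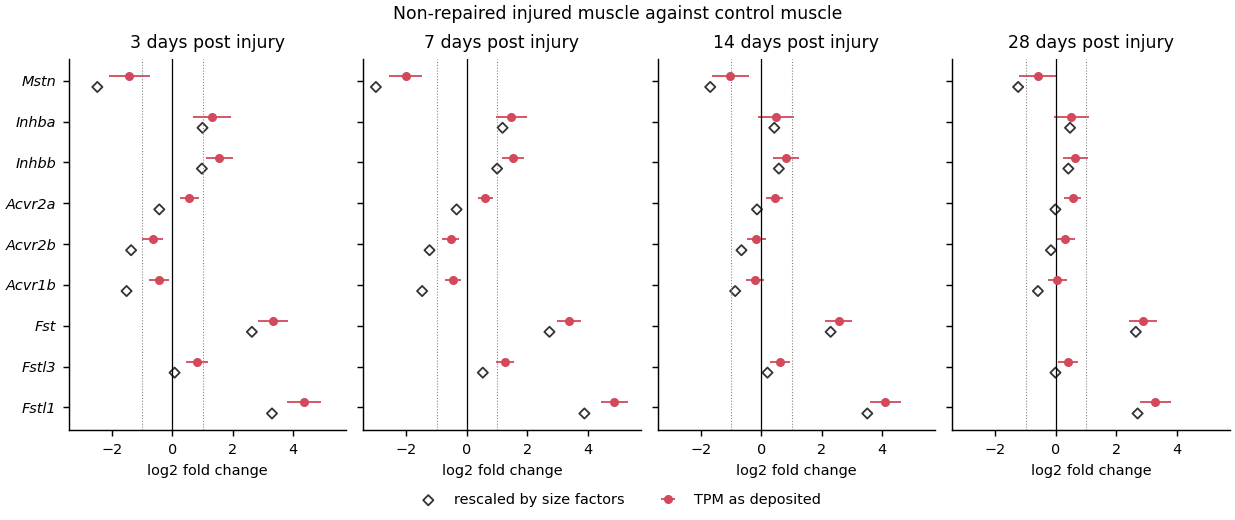
Log2 fold change of TPM + 1 of each gene in non-repaired injured muscle against control at 3, 7, 14 and 28 DPI, with 95% intervals, beside the value after rescaling by size factors (diamonds); dotted lines mark a log2 fold change of 1. Mstn lay to the left and Fst and Fstl1 to the right under both scalings, and Acvr2a changed sign between them.

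Fst, which encodes the trap for activins and myostatin, was called higher in injured muscle at all 4 days. Control muscles held 1.14, 0.80, 0.89 and 0.26 TPM. Non-repaired muscles held 13.7, 20.7 and 15.3 TPM at 3 DPI and 12.1 to 24.1 TPM (median 17.4, n = 8) at 7 DPI. The lowest injured muscle was thus far above the highest control muscle. Fst rose by 3.32 ± 0.25 at 3 DPI (limma, adjusted p = 8.43e-22) and by 3.37 ± 0.20 at 7 DPI (adjusted p = 8.24e-28). At 14 DPI it was at 8.32, 7.31, 9.76 and 12.2 TPM and at 28 DPI at 6.92, 10.95, 17.1 and 15.4 TPM, higher than control by 2.56 ± 0.23 and 2.89 ± 0.23. With size factors the 4 values were 2.63, 2.73, 2.29 and 2.65, all called, and with the graft they were 3.6, 3.98, 3.19 and 3.22, or 2.76, 3.22, 2.80 and 2.90 with size factors.

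Fstl3, another activin-binding protein gene, moved less. It was at 1.62, 1.65, 1.05 and 0.87 TPM in control, 2.81, 3.93 and 2.45 TPM in non-repaired muscle at 3 DPI and 3.91 to 5.35 TPM (median 4.37, n = 8) at 7 DPI, with no overlap with control at either day. It rose by 1.26 ± 0.15 at 7 DPI (limma, adjusted p = 8.70e-13), while 0.82 ± 0.18 at 3 DPI, 0.62 ± 0.17 at 14 DPI and 0.40 ± 0.17 at 28 DPI were not called. With the graft it rose by 1.22 ± 0.15 at 3 DPI and 1.57 ± 0.15 at 7 DPI, which with size factors were 0.33 and 0.73 and not called. With size factors the 4 non-repaired values were 0.07, 0.53, 0.20 and −0.01, none called and the last of opposite sign, and with all libraries kept the value at 7 DPI was 0.97.

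Fstl1 showed the largest log2 fold changes of the 9 genes against control on the TPM scale. Control muscles held 7.89, 7.91, 8.76 and 3.25 TPM, and non-repaired muscles held 153, 216 and 108 TPM at 3 DPI and 136 to 338 TPM (median 242, n = 8) at 7 DPI. It stayed at 116 to 155 TPM at 14 DPI and 59.5 to 90.1 TPM at 28 DPI, so no injured muscle came near control. Fstl1 rose by 4.35 ± 0.28, 4.88 ± 0.22, 4.10 ± 0.26 and 3.29 ± 0.26 over the 4 days (limma, highest adjusted p = 2.92e-19), and with size factors by 3.30, 3.89, 3.51 and 2.71. With the graft it rose by 4.82, 5.16, 4.32 and 3.46, and with size factors by 3.6, 4.0, 3.58 and 2.79. The 10 fibroblast genes, beside which Fstl1 moved, had median log2 fold changes of 5.41, 6.40, 5.1 and 4.01 at the same days, and their part in the Fstl1 values was not tested.

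The transcripts of Fst and Mstn were also set against each other within a muscle. Protein and binding were not measured, so the difference is not a measure of the balance between ligand and trap. In control the log2(TPM + 1) of Fst was below that of Mstn by −3.53 ± 0.22 (SD, n = 4, range −3.81 to −3.34). In non-repaired muscle the difference was 1.21 and 1.86 at 3 and 7 DPI and 0.05 and −0.04 at 14 and 28 DPI, and with the graft it was 1.66, 2.71, 0.74 and 0.22. Contralateral groups of non-running rats ranged from −3.46 to −1.87, between control and injured muscle.

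**Figure D4:**
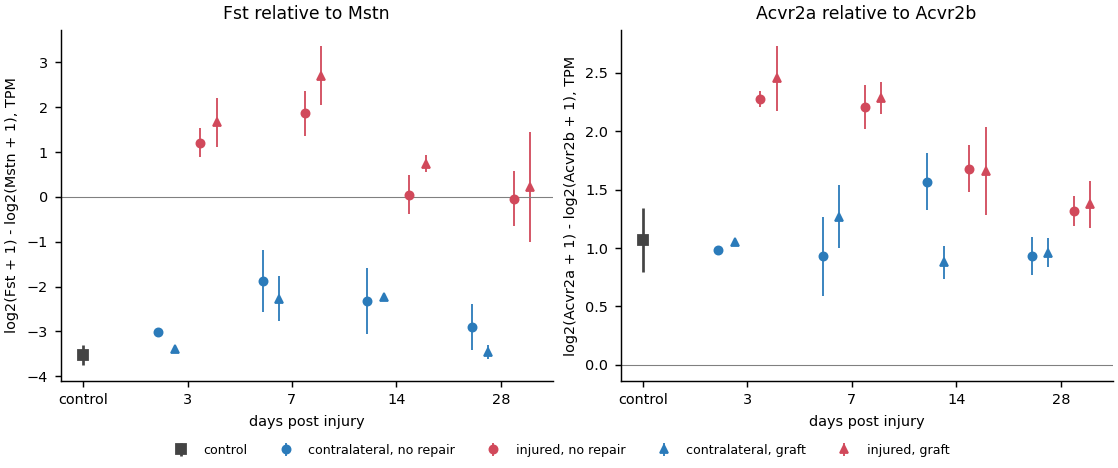
Difference of log2(TPM + 1) between Fst and Mstn (left) and between Acvr2a and Acvr2b (right) within a muscle, as mean and SD per group of non-running rats, by DPI. Fst lay below Mstn in control and contralateral muscle and above or near it in injured muscle, and the receptor difference was largest in injured muscle at 3 and 7 DPI.

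Against the contralateral muscle of the operated rats, which avoids the TS4 control rats, 5, 6, 2 and 2 of the 9 genes were called in non-repaired muscle at 3, 7, 14 and 28 DPI (38.2%, 47.4%, 21.1% and 13.3% of all genes). With the graft 4, 6, 2 and 2 were called (44.0%, 46.2%, 26.1% and 19.1%). In running rats 5, 6 and 3 were called without repair at 3, 7 and 14 DPI (40.1%, 43.1% and 26.3%) and 5, 6 and 2 with the graft (44.9%, 44.3% and 24.2%). Contralateral muscle of running rats at 28 DPI is not analysed here, since the labels put none in a group.

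Fst and Fstl1 were higher than in contralateral muscle in all 14 of these comparisons, with log2 fold changes of 1.55 to 2.94 for Fst and 2.39 to 4.19 for Fstl1. With size factors Fstl1 was called in all 14 and Fst in 12, the exceptions being non-repaired running muscle at 3 and 7 DPI (0.98 and 0.90). Inhba was called higher in all 8 comparisons at 3 and 7 DPI (1.12 to 1.79) and was 0.42 to 0.52, not called, in the 6 later ones. These 8 comparisons hold the injured groups through which Inhba passed the filter on low values, so their calls were favoured by it. With size factors 6 of the 8 were called, and the 2 others, at 3 DPI in non-running rats, were 0.92 and 0.80. Without injured replicate 2 the non-repaired value of Inhba at 3 DPI was 0.78 in place of 1.18 (adjusted p = 0.0832, range over alternatives 5.89e-05 to 0.0832). Inhbb was called in 6 of the 8 comparisons at 3 and 7 DPI, and the 2 others, at 3 DPI in non-running rats, were 0.55 without repair and 0.80 with the graft. Fstl3 was called in the 4 comparisons at 7 DPI alone. With size factors none of the Inhbb or Fstl3 values was called, with Inhbb at 0.13 to 0.87 and Fstl3 at −0.18 to 0.87 over the comparisons at 3 and 7 DPI.

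Mstn was called lower than in contralateral muscle in all 8 comparisons at 3 and 7 DPI and in 1 later comparison, non-repaired running muscle at 14 DPI (−1.47). At 3 DPI the differences were −2.26 without repair, −2.79 with the graft, −3.27 without repair in running rats and −3.77 with the graft in running rats, beside −1.42 and −1.59 against control in non-running rats. Contralateral Mstn at 3 DPI was itself above control, as described in the next comparison. Acvr2b was called lower in 1 comparison, non-repaired muscle at 3 DPI, where the injured muscles (0.53, 1.33 and 1.20 TPM) lay well below the 2 contralateral muscles at 3.64 and 4.06 TPM (−1.29 ± 0.21, limma, adjusted p = 6.84e-08). The other 7 values of Acvr2b at 3 and 7 DPI were −0.97 to −0.55 and were not called, and no value of Acvr2a or Acvr1b was called. With size factors Mstn was called lower in all 14 comparisons (−4.37 to −1.002) and Acvr2b in all 8 at 3 and 7 DPI (−1.62 to −1.11), Acvr1b in 7 of these 8 and 2 later ones, and Acvr2a in none.

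The contralateral muscle differed from control early. At 3 DPI, 3 of the 9 genes were called without repair (6.43% of all genes) and 4 with the graft (8.16%), all of them higher. At 7 DPI the counts were 1 (0.803%) and 2 (1.42%), and at 14 and 28 DPI none was called (0.715% and 0.185% without repair, 0.556% and 0.124% with the graft). In limma, unadjusted p was below 0.05 for 16 of the 36 values without repair and 17 of 36 with the graft. Of the 11328 genes it was below 0.05 for 6840, 2242, 1666 and 1317 without repair at 3, 7, 14 and 28 DPI. With the graft these counts were 7050, 4021, 1641 and 981. Each of these comparisons rests on 2 contralateral muscles at 3, 14 and 28 DPI, and it shares the control muscles with the injured comparisons.

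Contralateral Mstn at 3 DPI was 41.0 and 29.6 TPM without repair and 38.1 and 54.0 TPM with the graft, and all 4 muscles exceeded the highest control muscle at 25.5 TPM. In running rats it was 37.3 and 55.7 TPM without repair and 68.1 and 61.4 TPM with the graft. The log2 fold change against control was 1.21 ± 0.38 with the graft (limma, adjusted p = 0.00611) and 0.84 without repair (adjusted p = 0.057, not called). The grafted call was lost with size factors (0.64, adjusted p = 0.208), with all libraries kept (1.21, adjusted p = 0.211), without control replicate 4 (0.99) and without contralateral replicate 2 (0.96, adjusted p = 0.119), and adjusted p ranged from 0.00344 to 0.211 over the alternatives. At 7 DPI contralateral Mstn was 9.38 to 20.2 TPM without repair (n = 4) and 17.1 to 25.3 TPM with the graft (n = 6), both overlapping control.

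Contralateral Fst at 3 DPI was 4.11 and 2.80 TPM without repair and at 7 DPI 3.10, 3.33, 2.03 and 3.19 TPM, each above the highest control muscle at 1.14 TPM. It rose by 1.34 ± 0.28 at 3 DPI (limma, adjusted p = 0.000134) and by 1.15 ± 0.23 at 7 DPI (adjusted p = 0.000439), and with the graft by 1.35 ± 0.28 and 1.25 ± 0.21. The non-repaired value at 7 DPI was just under 1 (0.9994) without control replicate 4, with adjusted p of 3.25e-07 to 0.0395 over the alternatives. The non-repaired call at 3 DPI was lost with only the groups compared (adjusted p = 0.0714) and with all libraries kept (adjusted p = 0.296, the highest of its alternatives, the lowest being 6.05e-07). Both grafted calls were lost with all libraries kept (adjusted p = 0.248 at 3 DPI, from 3.12e-07, and 0.331 at 7 DPI, from 3.94e-09). With size factors Fst was called at both days in both arms (1.16 and 1.44 without repair, 1.15 and 1.32 with the graft) and also at 14 DPI (1.13 and 1.11). By 28 DPI contralateral Fst was 1.39 and 1.83 TPM without repair and 1.11 and 1.14 TPM with the graft.

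Contralateral Fstl1 at 3 DPI was 35.3 and 15.7 TPM without repair, above every control muscle (1.70 ± 0.32, limma, adjusted p = 2.48e-05). The call was lost without contralateral replicate 1 (1.14, adjusted p = 0.0557), with all libraries kept (adjusted p = 0.0555) and with only the groups compared (adjusted p = 0.0815), and adjusted p ranged from 7.34e-06 to 0.0815 over the alternatives. With the graft it rose by 1.82 ± 0.32 at 3 DPI and by 1.02 ± 0.24 at 7 DPI. The value at 7 DPI was not called with size factors (0.83), with all libraries kept (adjusted p = 0.272), with the control muscles averaged per rat (0.96) or without control replicate 4 (0.75, adjusted p = 0.0567), with adjusted p of 0.000247 to 0.272 over the alternatives. Inhbb was 1.96 and 2.15 TPM without repair and 2.08 and 2.15 TPM with the graft at 3 DPI, all above the highest control muscle at 0.94 TPM. Its log2 fold changes were 1.00 ± 0.26 (limma, adjusted p = 0.00127) and 1.03 ± 0.26. The second was not called with size factors (0.86) or without control replicate 3 (0.9955) or 4 (0.94). The first, at the threshold, was not called with the rat as a block for the paired muscles (0.9976, adjusted p = 0.00139), with size factors (0.85), with only the groups compared (adjusted p = 0.0756), with the control muscles averaged per rat (0.9957), without control replicate 3 (0.97) or 4 (0.91), or without contralateral replicate 2 (0.96). Adjusted p of that value ranged from 3.39e-05 to 0.0756.

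Fibroblast genes summed to 654 to 1513 TPM in non-repaired contralateral muscle at 3 DPI against 86.9 to 256 TPM in control, and leukocyte genes to 46.8 to 103 TPM against 14.0 to 23.2 TPM. The fiber genes summed to 185662 to 209602 TPM there, under the control range. The part of these differences in the contralateral values of the 9 genes was not tested.

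The graft was compared with no repair in injured muscle to ask whether the repair changed the axis. In non-running rats 0 of 36 values were called in limma, with 5 at an unadjusted p below 0.05 (0.00883%, 0.0883%, 0.0265% and 0% of all genes called at 3, 7, 14 and 28 DPI). Of the 11328 genes tested, 1957, 3064, 593 and 141 had an unadjusted limma p below 0.05 at the same days. All 95% intervals of the 36 values lay within −0.77 to 1.09. In running rats 0 of 36 were called, with 2 at an unadjusted p below 0.05 (0%, 0%, 0.0177% and 0.0177% of all genes called), and the intervals lay within −0.93 to 1.26. There 229, 783, 223 and 231 of all genes had an unadjusted p below 0.05. For Mstn the 4 non-running differences were −0.16, −0.23, −0.06 and 0.07, with intervals of −0.77 to 0.44, −0.67 to 0.21, −0.68 to 0.56 and −0.55 to 0.69. The data thus bound the difference in Mstn but do not show that the arms act alike.

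Fst was the gene closest to a difference. At 7 DPI grafted muscles held 19.4 to 33.9 TPM (median 26.1, n = 8) and non-repaired muscles 12.1 to 24.1 TPM (median 17.4, n = 8), which overlapped. The log2 fold change was 0.61 ± 0.16 (limma, adjusted p = 0.0125), past the adjusted threshold but not the fold threshold, and 8.19% of all genes passed the adjusted threshold alone in that comparison. In running rats at 7 DPI the grafted muscles held 24.6, 29.9, 31.9 and 27.9 TPM and the non-repaired muscles 19.4, 14.8, 14.0 and 15.6 TPM, with no overlap (0.80, adjusted p = 0.62). At 14 DPI in non-running rats grafted muscles held 13.1, 17.5, 12.9 and 16.6 TPM against 8.32, 7.31, 9.76 and 12.2 TPM, again with no overlap (0.63, adjusted p = 0.73), and in running rats at 14 DPI the difference was −0.08. The share of all genes with no overlap in these comparisons was not counted, so the lack of overlap adds nothing to the tests. The effect of injury, as injured against contralateral muscle, was also compared between the arms, and 0 of 36 such values were called in limma, with 4 at an unadjusted p below 0.05, where 0% of all genes were called at each of the 4 days. An unadjusted p below 0.05 was reached by 237, 1308, 100 and 63 of the 11328 genes at 3, 7, 14 and 28 DPI.

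Running was compared with not running within each arm. In injured muscle 0 of 36 values were called without repair (5 at an unadjusted p below 0.05 in limma, 95% intervals within −1.23 to 1.36) and 0 of 36 with the graft (1 at an unadjusted p below 0.05, intervals within −1.34 to 1.24). Over all genes 0.0441%, 0%, 0.0177% and 0.0177% were called without repair and 0% at each day with the graft. An unadjusted limma p below 0.05 was reached by 1643, 2414, 1128 and 429 of the 11328 genes without repair. With the graft these counts were 594, 207, 71 and 951. In contralateral muscle 0 of 27 values were called without repair and 0 of 27 with the graft, with 1 at an unadjusted p below 0.05 in each (0.194%, 0.0441% and 0% of all genes called at 3, 7 and 14 DPI without repair, 0.0618%, 0% and 0% with the graft). There 1198, 1393 and 124 of all genes had such a p without repair and 588, 508 and 64 with the graft. Non-repaired Fst at 14 DPI was 15.6, 30.8, 13.6 and 12.8 TPM in running rats, each above the highest non-running muscle at 12.2 TPM, with a log2 fold change of 0.82 (adjusted p = 0.19). The share of all genes with no overlap in this comparison was not counted.

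Mstn was compared between running and not running on both sides. At 3 DPI the non-repaired injured mean was 4.58 ± 3.79 (SD, n = 8) TPM in running rats and 6.74 ± 2.21 (n = 3) TPM in non-running rats, while the contralateral means were 46.5 ± 13.0 and 35.3 ± 8.04 TPM (n = 2 each). The difference between the 2 effects of injury was −1.01 ± 0.53 on the log2 scale (limma, adjusted p = 0.487). Over the days 0 of 27 such values were called, with 2 at an unadjusted p below 0.05, where 0.0971%, 0.00883% and 0% of all genes were called at 3, 7 and 14 DPI. Of the 11328 genes, 1229, 982 and 136 had an unadjusted p below 0.05 at these days.

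**Figure D5:**
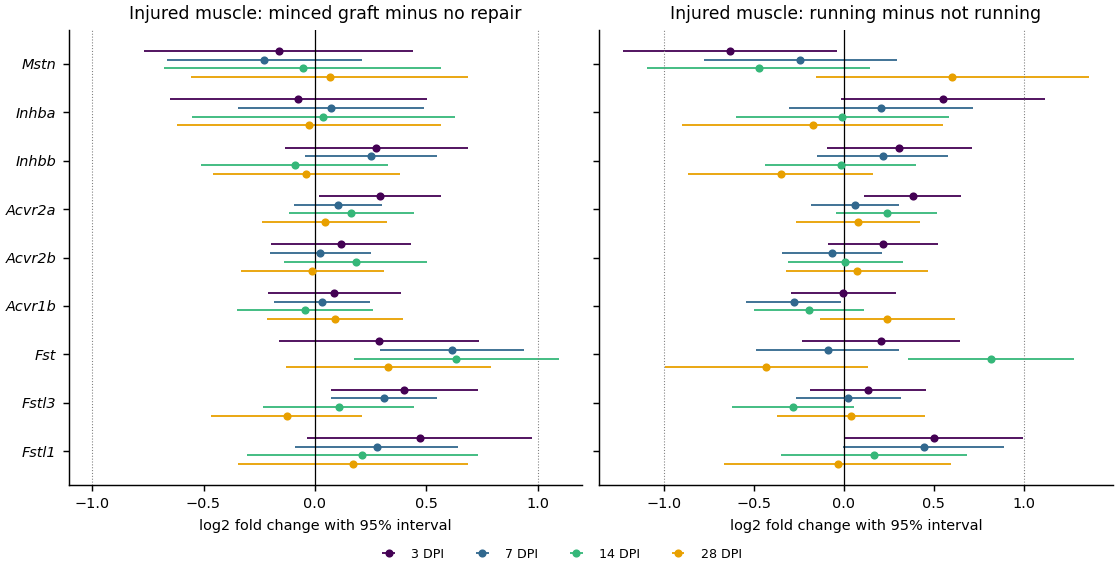
Log2 fold change of TPM + 1 with its 95% interval for each gene in injured muscle, with the graft minus no repair in non-running rats (left) and running minus not running in non-repaired muscle (right), by DPI; dotted lines mark a log2 fold change of 1. Most intervals crossed 0 and no value was called, and Fst at 7 and 14 DPI lay to the right with the graft.

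The course over days in non-repaired muscle was tested directly as well. None of the 9 genes was called between 3 and 7 DPI (7.34% of all genes) or between 14 and 28 DPI (0.459%). Between 7 and 14 DPI, Mstn rose by 1.00 ± 0.27 (limma, adjusted p = 0.000792, 6.82% of all genes called), and the call was lost without injured replicate 1 (0.95) or 2 (0.96) of 14 DPI, with adjusted p of 3.92e-05 to 0.0341 over the alternatives. Between 3 and 28 DPI, Fstl1 fell by 1.06 ± 0.28 (adjusted p = 0.000591, 28.8% of all genes called). That call was lost with size factors (−0.59), with all libraries kept (adjusted p = 0.059), without injured replicate 2 of 3 DPI (−0.81) or without injured replicate 3 of 28 DPI (−0.96), and adjusted p ranged from 0.000179 to 0.059. Fst had no call between days, and its levels at 28 DPI overlapped those at 3 DPI.

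Across the 17 non-running groups, mean Mstn went from 3.42 TPM (grafted, 7 DPI) and 4.07 TPM (non-repaired, 7 DPI), through 19.8 TPM in control, to 35.3 and 46.1 TPM in contralateral muscle at 3 DPI. Of the 16 neighbouring pairs in this order, 1 did not overlap within its SDs, between grafted contralateral muscle at 28 DPI (22.5 TPM) and non-repaired contralateral muscle at 3 DPI. Non-overlapping neighbours numbered 1 for Inhba, 2 for Inhbb, 1 for Acvr2a, 0 for Acvr2b, 1 for Acvr1b, 2 for Fst, 3 for Fstl1 and 0 for Fstl3 of the 16 pairs. They were not counted over all genes, and most contralateral groups held 2 muscles, so these counts are no result about the axis. For Fst every non-running control and contralateral muscle held at most 4.72 TPM and every non-running injured muscle at least 6.92 TPM. For Fstl1 these values were 35.3 and 53.4 TPM. In running rats Fst overlapped, with 7.84 TPM in a non-repaired contralateral muscle at 3 DPI and 7.14 TPM in a grafted injured muscle at 28 DPI. For Fstl1 the highest contralateral and lowest injured muscles of running rats held 45.3 and 57.7 TPM. The share of all genes with such a gap was not counted.

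The other genes of the pathway were taken from a list of 36, of which 33 were in the table and 26 passed the filter. Against control in non-repaired muscle, 16 were called higher and 2 lower at 3 DPI, 18 and 1 at 7 DPI, 12 and 1 at 14 DPI, and 11 and 0 at 28 DPI, where all genes were called higher at 48.3%, 45.6%, 25.0% and 21.1% and lower at 4.24%, 2.42%, 0.547% and 0.212%. The list medians were 1.26, 1.24, 0.87 and 0.79, beside the medians over all genes of 0.96, 0.91, 0.53 and 0.52. With size factors 9, 8, 9 and 9 were called higher and 3, 3, 1 and 1 lower, with list medians of 0.25, 0.43, 0.37 and 0.26, where 24.2%, 21.6%, 15.6% and 11.4% of all genes were called higher and 16.6%, 14.0%, 5.83% and 3.12% lower. No gene of the list that was called on the TPM scale changed sign.

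Against the contralateral muscle without repair, 8, 16, 10 and 8 of the 26 were called higher and 2, 1, 0 and 0 lower over the same days, where all genes were called higher at 32.3%, 45.3%, 20.9% and 13.1% and lower at 5.92%, 2.01%, 0.168% and 0.212%. At 3 DPI the count was thus 8, beside 16 against control, and the list median was 0.65, beside 0.54 over all genes. With size factors 3, 7, 6 and 4 were called higher and 4, 4, 1 and 1 lower, beside 20.4%, 18.5%, 10.4% and 7.12% of all genes higher and 13.4%, 12.7%, 3.74% and 1.49% lower. The values of single genes that follow are against control.

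Among the other ligand genes, Gdf11, the closest relative of Mstn, was at a mean of 1.95 TPM in control and 3.37, 5.71, 6.88 and 12.7 TPM in non-repaired muscle over the 4 days. Its level was highest at 28 DPI, with log2 fold changes of 0.60, 1.22, 1.45 and 2.18, the last 3 called, and with size factors it was called at 28 DPI alone (1.73). Inha, the inhibin subunit gene, rose by 1.81, 2.02 and 1.38 at 3, 7 and 14 DPI. Gdf1 was called lower at 3 DPI (−1.33), and Gdf3 was called higher at 3 DPI from a control listed at 0, for which no fold is given.

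Of the receptor genes, Tgfbr2, Tgfbr3 (betaglycan, a co-receptor for inhibin and TGF-β) and Acvrl1 were called higher at all 4 days, with Tgfbr2 at 2.44, 2.39, 1.83 and 1.77. Tgfbr1, the alternative type I receptor for myostatin, rose by 2.51 and 1.57 at 3 and 7 DPI. Acvr1 was not called at any day. Among the proteases that process the latent ligands, Bmp1, of the tolloid family that frees myostatin from its propeptide, rose by 3.61, 4.38, 3.40 and 2.82, Tll1 by 1.65, 1.66, 1.36 and 1.34, and Pcsk5 by 1.69, 2.55, 1.59 and 1.17. Furin, which cleaves the precursor, rose by 1.71 and 1.28 at 3 and 7 DPI, and Pcsk6 rose by 1.25, 1.53 and 1.56 at 7, 14 and 28 DPI.

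Of the binding proteins, Dcn (decorin), which is also on the fibroblast list, rose by 3.17, 3.38, 2.91 and 2.69 and Ltbp3, a latent TGF-β binding protein, by 1.24, 2.04, 1.54 and 1.11. Against the contralateral muscle at 3 DPI neither was called, with log2 fold changes of 0.9974 for Dcn and 0.29 for Ltbp3. Bambi, a decoy receptor, rose by 1.13 at 7 DPI. Tcap, a sarcomeric protein that binds myostatin inside the fiber, was called lower at 3, 7 and 14 DPI (−1.83, −1.70 and −1.20). Of the intracellular genes, Pmepa1, a feedback target of SMAD signaling, rose by 3.51, 3.18, 2.27 and 2.05. Smad2 (1.27 and 1.06), Smurf1 (1.26 and 1.10) and Smurf2 (1.13 and 1.06) rose at 3 and 7 DPI, whereas Smad3, Smad4, Smad6 and Smad7 were not called. With size factors Bmp1, Tll1, Pcsk5, Tgfbr2, Dcn and Pmepa1 were still called at all 4 days, whereas Smad2, Smurf1, Smurf2, Furin, Acvrl1 and Bambi were called at none, with values of 0.06 to 0.81 at the days named. Ltbp3 was then at 0.15, 1.00, 0.89 and 0.48 and called at 7 DPI alone. Tgfbr1 was called at 3 DPI (1.45) but not at 7 DPI (0.58), and Tgfbr3 at 14 and 28 DPI (1.06 and 1.41) but not at 3 and 7 DPI (0.69 and 0.93). Pcsk6 was called at 14 and 28 DPI (1.06 and 1.10) but not at 7 DPI (0.44), and Inha at 3, 7 and 14 DPI (1.11, 1.36 and 1.05).

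The genes whose group means most resembled each member over the 31 groups were found by Pearson r of mean log2(TPM + 1), as a description over groups that share libraries and rats. Mstn was nearest to Fech (0.970), Ppm1a (0.966) and Tmem56 (0.964), and Fst to Srgap2 (0.981), Crot (0.978) and Bbc3 (0.977). Inhba was nearest to Ap1s3 (0.980), Sv2c (0.978) and Il7r (0.978), and Inhbb to P4ha2 (0.972), Mark4 (0.965) and Hyal2 (0.962). Fstl1 was nearest to Lpar1 (0.998), Frmd6 (0.997) and Loxl2 (0.997), and Fstl3 to Tigd5 (0.948), Gorasp2 (0.948) and Hyal2 (0.941). The receptor genes were nearest to Eea1 (0.968), Trip11 (0.964) and Taok1 (0.962) for Acvr2a, to Mbnl1 (0.937), Prkaa2 (0.924) and Sim1 (0.921) for Acvr2b, and to Gnao1 (0.947), Rere (0.946) and Mapk9 (0.939) for Acvr1b. Over the same groups the correlation of Mstn was −0.853 with Inhba and −0.690 with Inhbb.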

How the data were processed

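Total RNA of TA muscles was sequenced, and the authors deposited 1 table of TPM per gene symbol, made from the reads with Kallisto at default parameters on the Genbank annotation of rat genome build 6.0, per the study's methods. The submitters' processing notes name kallisto and DESeq without versions. TPM carry no depth, so no counting interval is given. The table as used here ends at the symbol Tubb3, and the cut line after it was left out, so later symbols were not analysed here. Of 138 libraries, 9 had labels that put them in no group, and 13 with fewer than 7000 symbols above 1 TPM were dropped, which lost 2 muscles. The replicate was the muscle, and 2 muscles with 2 libraries each were averaged. Muscles of a group come from separate rats except in control.

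The values were analysed as log2(TPM + 1), with a filter that kept genes whose mean exceeded 1 TPM in at least 1 group (11328 genes), in limma 3.58.1 with an intensity trend, 1 coefficient for each of 31 groups, 83 residual degrees of freedom and Benjamini-Hochberg adjustment over all genes tested. A call needed an adjusted p below 0.05 and an absolute log2 fold change above 1. Mstn relative to the fiber genes was tested with an exact permutation test over muscles (scipy 1.17.1). Both muscles of 36 rats were kept, injured and contralateral in 34 and both control in 2, and these pair by animal: the mean correlation of deviations from group means was 0.0944 over the 34 injured and contralateral pairs, with 15 above 0.1, and −0.306 over the 2 control pairs, against −0.00871 over 6405 pairs of different rats, and a block for the rat was fitted as an alternative with statmod 1.5.0 (within-rat correlation 0.026).

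The 9 genes, the pathway list and the cell type lists were chosen with earlier results of these data known. By rule, the genes named are the 9 genes, genes of the pathway list that were called, for each of the 9 the 3 genes of most similar group means, and defining markers of the cell type lists. The pathway genes named as not called (Acvr1, Smad3, Smad4, Smad6 and Smad7) fall outside the rule and were chosen after their values were seen. Other tools were R 4.3.3, Python 3.11.15, pandas 2.3.3, numpy 2.4.6 and matplotlib 3.10.9. Alternatives were a pseudocount of 0.1, no filter, size factors (medians of ratios), the rat block, all libraries kept, each library as its own sample, fewer groups in the fit, control muscles averaged per rat, 1 rat with contradictory day labels left out, either threshold of the call rule alone, and each muscle of a group of 5 or fewer left out in turn.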

Additional observations from a re-analysis of the deposited data

Results flagged for a closer look

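Within groups of 4 to 10 muscles, 13 of 144 gene and group combinations had 1 muscle far from the others by Dixon's ratio, where chance gives about 1 in 20, and no explanation was tested. The Inhba value of 25.4 TPM in running non-repaired muscle at 3 DPI, replicate 6, stood apart from 1.48 to 2.60 TPM in the other 7. For Mstn, grafted contralateral muscle at 7 DPI had 25.31 TPM in replicate 2, and grafted injured muscle at 28 DPI had 6.33 TPM in replicate 2. For Inhba, non-repaired contralateral muscle at 7 DPI had 0.14 TPM in replicate 6. For Inhbb, grafted injured muscle at 7 DPI had 6.99 TPM in replicate 3, and grafted running injured muscle at 14 DPI had 2.12 TPM in replicate 2. For Acvr2a, grafted injured muscle had 15.58 TPM at 3 DPI in replicate 1 and 6.74 TPM at 7 DPI in replicate 3. For Acvr1b, grafted injured muscle at 3 DPI had 8.41 TPM in replicate 6. For Fst, non-repaired contralateral muscle at 7 DPI had 2.03 TPM in replicate 5. For Fstl1, control replicate 4 had 3.25 TPM, non-repaired contralateral muscle at 7 DPI had 7.82 TPM in replicate 4, and grafted injured muscle at 14 DPI had 217.78 TPM in replicate 2.

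The 9 libraries in no group were used in no comparison. Of these libraries, Fst was above the highest control muscle in 9, Inhbb in 8, Fstl1 in 7, Inhba in 5, Acvr2a in 5, Fstl3 in 3, Acvr2b in 2 and Mstn in 1. Such counts were not made over all genes, so they are no result about these genes.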

How the results depend on the processing

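Limits: depth is unknown, most contralateral groups held 2 muscles, and the 4 control muscles came from 2 rats. Of 6098 single values under other settings 5901 kept their call, as did 3111 of 3150 with a muscle left out, and no called value changed sign. Of 567 values, the adjusted p alone gained 76 calls, size factors gained 36 and lost 25, and a pseudocount of 0.1 gained 36. The rat block for paired muscles lost 1 call, Inhbb in contralateral non-repaired muscle against control at 3 DPI (0.9976), and changed no other. With the adjusted p alone, called values were 29 in place of 16 for injured non-repaired muscle against control, 28 in place of 17 with the graft, 25 in place of 14 for injured against contralateral with the graft, 8 in place of 4 and 10 in place of 6 for contralateral against control without and with the graft, 1 in place of 0 for the graft against no repair, and 15 in place of 2 between days. The share of all genes past the adjusted p alone is given only for the graft against no repair at 7 DPI in non-running rats (8.19%). The other counts stand without such a share and are no result about the axis. Contralateral against control gave 1 call without repair with only the groups compared, and 2 with the graft with all libraries kept. Between days the counts were 6 with a pseudocount of 0.1 and 1 with all libraries kept. With the fold change alone, 1 value in place of 0 passed for running and injury together. Muscles were left out in turn from groups of 5 or fewer. Counts were then 15 to 16 and 16 to 18 for injured against control without and with the graft, 15 and 14 to 15 against contralateral, 13 to 15 and 13 to 14 in running rats, 2 to 4 and 3 to 6 for contralateral against control, 1 to 5 between days, 0 to 1 for running in contralateral muscle with the graft, and 0 elsewhere. Mstn relative to the fiber genes with the graft at 3 DPI was 1.23 but no longer past the threshold with the control muscles averaged per rat, an alternative chosen after seeing the data, 1.08 with a pseudocount of 0.1 and 0.84 with Acta1 and Ckm alone, the latter also reversing the grafted value at 28 DPI (0.0026). With a control muscle, or an injured muscle of a group of 5 or fewer, left out (control muscles alone at 7 DPI and for the graft at 3 DPI), these Mstn values ranged, at 3, 7, 14 and 28 DPI, from 0.70 to 1.13, −0.87 to −0.44, −0.93 to −0.50 and −0.52 to −0.09 without repair, and from 0.96 to 1.39, −0.84 to −0.41, −0.88 to −0.45 and −0.46 to 0.0062 with the graft, the last reversed without grafted replicate 2. The cause of these differences was not tested.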

Other observations

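The 9 libraries whose labels give no single group are described as values alone. Fst ranged from 1.15 to 13.2 TPM with a median of 3.26, and Fstl1 from 7.69 to 92.9 TPM with a median of 27.5. Mstn ranged from 8.33 to 29.3 TPM (median 16.2), Inhba from 0.04 to 0.60 TPM (median 0.21), Inhbb from 0.93 to 1.51 TPM (median 1.14) and Fstl3 from 1.05 to 2.82 TPM (median 1.46). The receptor genes ranged from 4.17 to 9.40 TPM for Acvr2a, 1.48 to 3.79 TPM for Acvr2b and 15.4 to 19.5 TPM for Acvr1b.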
